A study of Mus musculus with 38 samples.

Results

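The 9 genes described here encode the SLAM family of immune receptors, found by symbol (Cd244a, Ly9, Slamf7, Cd48, Slamf1, Cd84, Slamf6, Slamf9 and Slamf8) among the 78202 genes of the deposited tables. All lie on mouse chromosome 1 within 1031.47 kb. Mouse embryonic stem cells (mESCs) in the naive state, grown with kinase inhibitors and LIF, were compared with epiblast-like cells (EpiLCs), which were grown in FGF and activin A and approximate the primed epiblast. Cells of both stages were collected at 48 h. CUT&RUN, in which a nuclease brought to chromatin by an antibody releases the DNA nearby, was performed on 200000 cells with 0.3 pg of yeast DNA as spike-in. LAP2B, an inner nuclear membrane protein, was mapped at both stages in 4 genotypes of 3 libraries each: wild type (WT), LBRKO, which lacks the lamin B receptor (LBR), TKO, which lacks all lamins (Lmna, Lmnb1 and Lmnb2 deleted), and QKO, which lacks the lamins and LBR. LMNB1 (lamin B1) and a non-specific antibody (IGG) were mapped in WT only. The WT and TKO lines came from littermates, LBRKO was edited from WT (several clones were made), and QKO was 1 surviving clone edited from TKO. The study's supplement gives that clone a frameshift deletion and an in-frame deletion in Lbr. The study reports that LBR could not be detected in it by immunostaining. By the karyotypes in the study's methods, TKO cells carried a trisomy of chromosome 8 and a minority of WT cells were abnormal too, some lacking the Y chromosome and some also with extra copies of chromosomes 6 and 8. No change of chromosome 1 is named. TKO and QKO therefore share a line that WT and LBRKO do not. For their comparisons with WT or LBRKO the line and the genotype cannot be told apart. The knockouts, the stage of the cells and the expression of the 9 genes were not checked here, because chromatin signal does not measure expression.

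SLAM receptors are immunoglobulin-like proteins on the surface of haematopoietic cells. Most bind a second copy of themselves on a neighbouring cell, and their tails hold tyrosine motifs that recruit the adaptor SAP (Sh2d1a) and its relatives EAT-2 (Sh2d1b1) and ERT (Sh2d1b2). They tune the killing activity of natural killer cells and the contacts between T and B cells. Genes at the nuclear periphery lie in lamina-associated domains (LADs), which are generally poor in active genes. LBR and the lamins are known as tethers that hold such chromatin there, and LAP2B, as a membrane protein of the same place, reports contact with it.

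The first 7 genes, from Cd244a to Slamf6, stand side by side and are called the block below, and Slamf9 and Slamf8 are called the distant pair. In GRCm39 coordinates Cd244a lies at chr1:171386708-171437315, Ly9 at chr1:171416173-171434978 inside the annotated span of Cd244a, Slamf7 at chr1:171459966-171480603, Cd48 at chr1:171509573-171532826, Slamf1 at chr1:171594695-171628764, Cd84 at chr1:171667263-171720036 and Slamf6 at chr1:171745057-171780737. After a gap of 516 kb filled with other genes come Slamf9 at chr1:172297192-172307889 and Slamf8 at chr1:172409325-172418178. The values cover each gene from end to end, exons, introns and untranslated regions together. Because Ly9 lies within Cd244a, the value of Cd244a includes the bins of Ly9, which make up 36.5% of its bins and held 11.8% of its IGG reads, so the values of these genes share reads, and neighbours in the block are not independent replicates.

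Promoters are shown for 3 members because their LAP2B signal changed most (Cd244a), was followed as an example gene by the study (Slamf6), or did not pass the main test (Slamf9). Each run is the 250 bases before the RefSeq start, read 5′ to 3′ from the RefSeq promoter table (GRCm38.p6), and CG dinucleotides are in capitals. The sequences matched GRCm39 once each, all on the + strand, at chr1:171386511-171386760 for Cd244a, chr1:171744779-171745028 for Slamf6 and chr1:172302677-172302926 for Slamf9.
Cd244a: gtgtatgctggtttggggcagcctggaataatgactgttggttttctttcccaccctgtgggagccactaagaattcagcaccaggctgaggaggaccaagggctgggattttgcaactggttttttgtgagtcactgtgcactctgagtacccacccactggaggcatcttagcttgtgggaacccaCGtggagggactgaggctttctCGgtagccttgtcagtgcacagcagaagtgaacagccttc
Slamf6: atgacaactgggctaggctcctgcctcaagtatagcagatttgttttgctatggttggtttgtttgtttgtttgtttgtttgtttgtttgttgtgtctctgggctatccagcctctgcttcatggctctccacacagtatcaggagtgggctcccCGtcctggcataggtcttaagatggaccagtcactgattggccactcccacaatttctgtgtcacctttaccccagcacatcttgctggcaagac
Slamf9: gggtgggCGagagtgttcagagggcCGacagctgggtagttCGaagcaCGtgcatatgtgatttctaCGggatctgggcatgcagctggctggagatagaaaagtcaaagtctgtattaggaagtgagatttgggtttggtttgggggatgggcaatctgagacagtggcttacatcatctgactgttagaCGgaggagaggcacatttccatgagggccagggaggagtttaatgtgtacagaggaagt
The RefSeq start of Slamf9 lies inside the GENCODE span used for its values. The motif CG, the same on both strands, occurred 2 times before Cd244a, 1 time before Slamf6 and 6 times before Slamf9. Promoters were found for 8 of the 9 members (not Ly9), and 7 of the 8 held at most 5 CG, as did 49.5% of the 27025 RefSeq promoters of this length. The promoters of the other matched members held 3 (Slamf7, Slamf1 and Cd84) or 4 CG (Cd48 and Slamf8).

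All 9 members passed the filter on low values, which kept 70381 genes. Each value is the sum of spike-in-scaled signal over the 1 kb bins that a gene touches, and whole reads could be recovered from it. Recovered reads over genes ranged from 12028659 to 45689196 per library, with 36 to 135 reads on the median gene. Slamf9 rested on the fewest LAP2B reads of the members, 36 to 109 in WT EpiLCs and 66 to 85 in WT naive cells, whereas Cd244a had 2513 to 3687 in WT naive cells. For comparisons between genotypes, values were set against the median tested gene of the same library (the relative scale), so that a relative value of 1 is the library's median gene. Changes on the deposited spike-in scale are given beside it. The labels do not say that libraries came from separate cultures, so p-values measure the spread between these libraries. The share of all genes whose libraries do not overlap is given for QKO against WT naive cells and for IGG between the WT stages. In every other comparison non-overlap only describes the genes named, and how common it was among all genes is not given.

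In WT naive cells the block carried more LAP2B and LMNB1 than most genes, while IGG over it was ordinary except at Cd244a. Per 1 kb bin on the deposited scale, LAP2B was 0.987 ± 0.287 at Slamf6 (SD, n = 3), 0.859 ± 0.349 at Slamf1, 0.820 ± 0.249 at Cd48, 0.820 ± 0.242 at Slamf7, 0.707 ± 0.270 at Ly9 and 0.593 ± 0.102 at Cd84, against 0.512 for the median gene. The SDs include shifts of whole libraries. Within each library Slamf6 lay above Slamf1 and Slamf7 above Ly9, while the other neighbours in this order changed places between libraries. Slamf8, at 0.890 ± 0.104, fell within the same range. Slamf9 was lower at 0.317 ± 0.118 and Cd244a higher at 2.53 ± 0.666, both over GENCODE spans that differ from those of RefSeq. As percentiles of all tested genes, mean LAP2B per bin ranged from 60.5 (Cd84) to 99.7 (Cd244a) in the block, and stood at 84.9 for Slamf8 and 19.0 for Slamf9. LMNB1 gave block percentiles of 63.5 to 99.7, with 76.1 for Slamf8 and 21.0 for Slamf9. IGG gave 36.0 to 66.3 for the 6 block members other than Cd244a, 99.7 for Cd244a, 83.4 for Slamf8 and 6.58 for Slamf9.

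**Figure D1:**
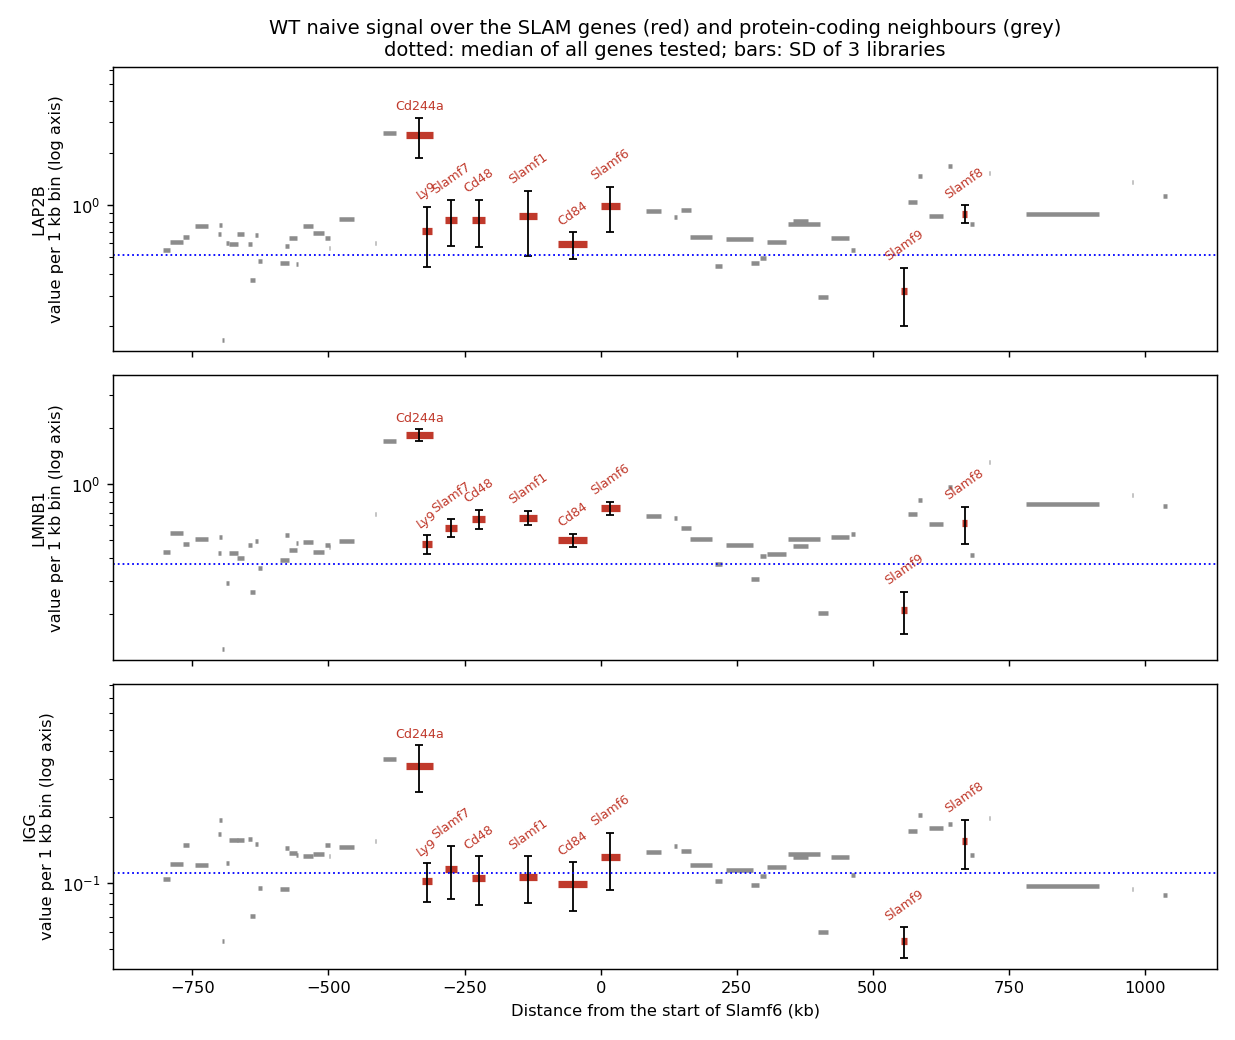
LAP2B, LMNB1 and IGG signal per 1 kb bin (log axes) in WT naive cells against distance from the start of Slamf6 in kb, with SLAM genes in red (mean and SD of 3 libraries), protein-coding neighbours in grey and the median gene dotted. Cd244a and the gene to its left, Itln1, stand above all other genes drawn in all 3 panels, IGG included, and Slamf9 stands lowest among the members.

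The low level of Slamf9 holds for its GENCODE span of 10.7 kb, while RefSeq gives a different span of 19.9 kb. Its level over the RefSeq span was not measured. A non-coding gene that takes 3 of its 11 bins held 61.3% of its IGG reads, so reads were not spread evenly over the span used here. Its level per bin was therefore not ranked against the others further. The span of Cd244a differs too, at 50.6 kb in GENCODE and 26.6 kb in RefSeq, so its level, percentile and ratio to the block hold for the GENCODE span. A change between genotypes compares the same bins.

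Dividing by IGG sets each gene against the non-specific signal over its own bins. On the log2 scale of relative values with 0.1 added, LAP2B over mean IGG in WT naive cells was 0.76 ± 0.32 at Slamf1 (SD over 3 LAP2B libraries), 0.74 ± 0.18 at Cd48, 0.71 ± 0.17 at Slamf6, 0.68 ± 0.14 at Cd244a, 0.60 ± 0.17 at Slamf7, 0.53 ± 0.29 at Ly9 and 0.39 ± 0.01 at Cd84. Slamf8 and Slamf9 were lowest at 0.34 ± 0.10 and 0.28 ± 0.25. LMNB1 over IGG was highest at Slamf1 (0.93 ± 0.21) and Cd48 (0.92 ± 0.12) and lowest at Slamf8 (0.27 ± 0.41) and Slamf9 (0.21 ± 0.24). Against IGG, Cd244a thus lay inside the range of the other block members, unlike its level per bin. In WT EpiLCs LAP2B over IGG was 0.38 (Ly9) to 0.66 (Cd84) in the block, -0.0007 ± 0.25 at Slamf8 and -0.20 ± 0.48 at Slamf9. As percentiles of genes with enough IGG to divide by, the block stood at 70.3 (Cd84) to 87.0 (Slamf1) in naive cells. In EpiLCs it stood at 81.1 (Ly9) to 92.8 (Cd84). Slamf8 and Slamf9 were at 67.35 and 64.6 in naive cells and at 56.5 and 37.7 in EpiLCs. The tables were scaled separately, so these ratios were not tested.

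Cd244a and Itln1, an intelectin gene next to it, carried a different multiple of the block's signal in the TKO and QKO libraries than in the WT and LBRKO libraries. Itln1 was singled out after its values were seen. Intelectin and SLAM genes are known to vary in number among inbred mouse strains. Within each library, the value per bin of Cd244a was divided by the median of the other 6 block members. The ratio was 3.15 ± 0.142 in WT naive LAP2B (SD, n = 3), 3.01 ± 0.129 in LMNB1 and 3.19 ± 0.156 in IGG of the same cells. Over LAP2B libraries it ran from 3.00 to 3.88 in the 12 of WT and LBRKO and from 1.89 to 2.53 in the 12 of TKO and QKO, without overlap. The log2 ratio differed by -0.50 between QKO and WT naive cells for Cd244a, and by -0.55 for Itln1. IGG was not mapped in the mutants, the strains of the lines are not given in the sources used here, and the part of copy number in the larger fall of Cd244a in TKO and QKO was not tested.

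**Figure D2:**
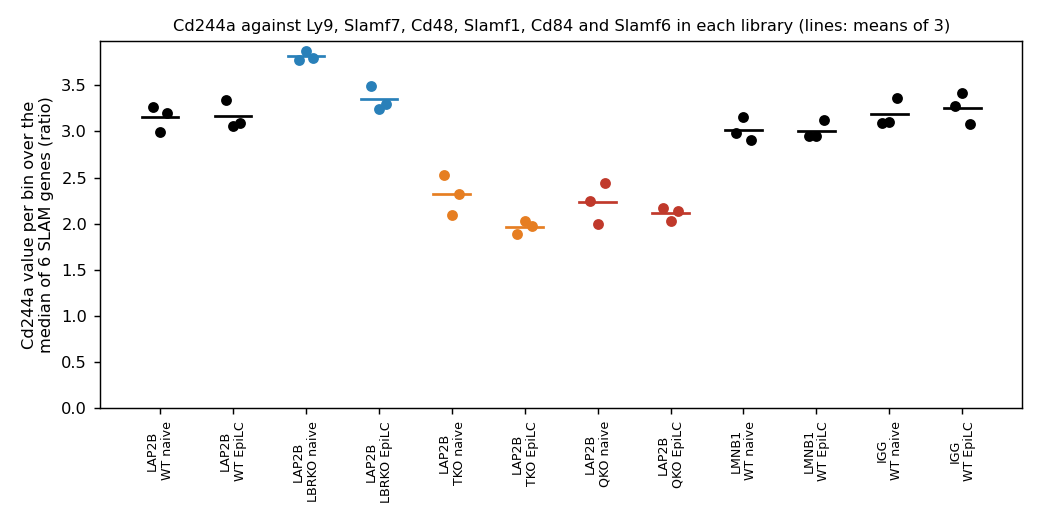
Ratio of Cd244a signal per bin to the median of Ly9, Slamf7, Cd48, Slamf1, Cd84 and Slamf6 in each library (points, lines are means of 3), by antibody, genotype and stage. The 12 TKO and QKO libraries lie at 1.89 to 2.53, below all WT and LBRKO libraries, and the 6 WT IGG libraries lie at 3.08 to 3.41.

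Without the lamins and LBR, LAP2B was lower over the whole block and over Slamf8 in naive cells. Cd48 is the membrane-anchored ligand of the killer-cell receptor Cd244a. Its relative LAP2B value was 5.69, 7.23 and 5.94 in WT naive libraries and 1.78, 2.58 and 1.80 in QKO naive libraries. The receptor gene Cd244a went from 41.0, 46.9 and 38.7 to 9.65, 10.9 and 9.30. For neither gene did WT and QKO libraries overlap. The log2 change was -1.58 ± 0.15 (SE) for Cd48 (adjusted p = 7.75e-14 by limma) and -2.07 ± 0.09 for Cd244a (adjusted p = 7.63e-26).

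The receptors that bind themselves moved the same way. Slamf1 (CD150), also used to mark blood stem cells, stood at 8.61, 12.1 and 7.85 in WT and at 2.3, 3.59 and 2.48 in QKO. Slamf6, found on T cells, stood at 10.3, 12.9 and 10.9 in WT and at 6.17, 5.79 and 5.67 in QKO. Cd84, found on B cells, platelets and myeloid cells, stood at 10.4, 10.4 and 10.3 in WT and at 4.89, 5.23 and 4.39 in QKO. No QKO library reached a WT library in any of the 3 genes. The log2 changes were -1.74 ± 0.15 for Slamf1 (adjusted p = 4.28e-15), -0.93 ± 0.12 for Slamf6 (adjusted p = 9.01e-10) and -1.09 ± 0.11 for Cd84 (adjusted p = 2.90e-12). Ly9 (CD229), found on T and B cells, stood at 3.96, 5.30 and 3.54 in WT and at 1.21, 1.81 and 1.36 in QKO. Slamf7, a plasma cell and killer-cell receptor, stood at 5.39, 6.61 and 5.31 in WT and at 2.03, 2.66 and 1.53 in QKO. Neither overlapped, and the changes were -1.48 ± 0.16 and -1.46 ± 0.15. The study picked Slamf6 as an example on these samples, so its fall is not independent evidence. There it stood for WT LAD genes whose expression was lower in QKO mESCs.

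The distant pair, both receptors with short tails that lack the tyrosine motifs, split. Slamf8, known from myeloid cells, stood at 2.93, 2.68 and 3.09 in WT and at 0.967, 1.72 and 1.12 in QKO, with no overlap and a change of -1.17 ± 0.20 (adjusted p = 5.85e-07). Slamf9 stood at 0.944, 1.36 and 1.02 in WT and at 0.625, 1.00 and 0.944 in QKO. The Slamf9 libraries overlapped, and its change of -0.34 ± 0.24 did not pass (adjusted p = 0.197).

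Together, 8 of 9 members were called lower and none higher in QKO naive cells, where 44.2% of all tested genes were called lower and 31.7% higher. Libraries did not overlap, with QKO lower, for 8 members and for 43.7% of genes. The median member changed by -1.46 and the median gene by -0.28. On the spike-in scale all 9 were called lower, from -1.36 ± 0.31 (Slamf9) to -3.23 ± 0.23 (Cd244a), where 65.4% of genes were called lower and the median gene changed by -1.19. Without Cd244a, whose span holds Ly9, the counts are 7 of 8 on the relative and 8 of 8 on the spike-in scale. Mean relative LAP2B in QKO naive cells lay below mean relative IGG in WT naive cells at every member. At Cd48 these means were 2.05 and 3.72, and at Slamf1 2.79 and 5.48. IGG was not mapped in QKO, and the part of background in these falls was not tested.

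**Figure D3:**
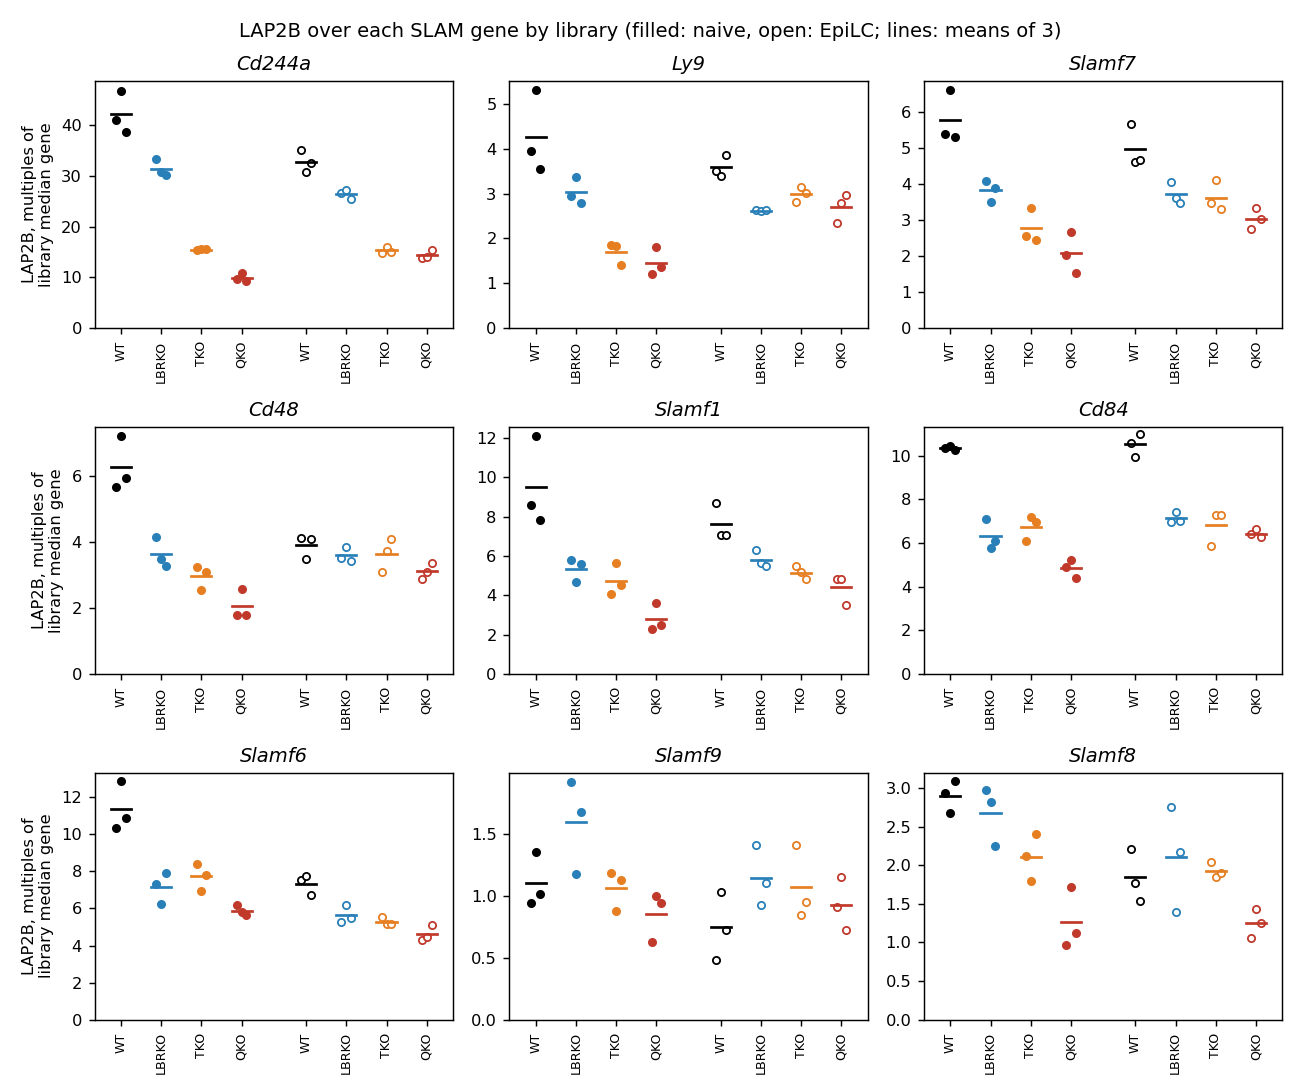
Relative LAP2B value (multiples of the library's median gene, linear axes from 0) of each SLAM gene in each of 24 libraries, naive filled and EpiLC open, with lines at means of 3. In naive cells WT libraries lie above all QKO libraries for 8 genes, and Slamf9 is the exception with overlapping libraries.

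In cells without the lamins alone, the block was lower too. Relative LAP2B in TKO naive libraries was 3.26, 2.54 and 3.11 at Cd48, 4.08, 5.66 and 4.51 at Slamf1, 6.08, 7.20 and 6.99 at Cd84 and 8.42, 6.96 and 7.81 at Slamf6. Each of these values lay below all WT naive libraries. The log2 changes from WT were -1.06 ± 0.15 for Cd48 (adjusted p = 5.91e-08), -0.97 ± 0.15 for Slamf1, -0.61 ± 0.11 for Cd84 and -0.55 ± 0.12 for Slamf6 (adjusted p = 0.000152). Dividing each library by its mean gene ended the call of Slamf6 (-0.22, adjusted p = 0.108). At the left of the block, Cd244a, Ly9 and Slamf7 changed by -1.43 ± 0.09, -1.27 ± 0.16 and -1.03 ± 0.15. Slamf8 did not pass, at -0.45 ± 0.20 (adjusted p = 0.0523), although its TKO libraries of 2.12, 1.80 and 2.40 lay below those of WT, and it was called with the larger pseudocount (adjusted p = 0.0398) and with only the groups compared (adjusted p = 0.0480). Slamf9 was at -0.04 ± 0.24 (adjusted p = 0.896). Thus 7 of 9 members were called lower, with a background of 28.1% of genes lower. On the spike-in scale 8 of 9 were called lower (background 47.6%, median gene -0.63), Slamf9 being the exception at -0.61 ± 0.31 (adjusted p = 0.0900), though it was called with the factor applied to reads (-0.79, adjusted p = 0.0108).

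In cells without LBR alone, the 7 genes of the block were lower on the relative scale. In LBRKO naive libraries Cd48 stood at 4.14, 3.50 and 3.29, Slamf1 at 5.82, 4.69 and 5.58, Cd84 at 7.08, 5.77 and 6.09 and Slamf6 at 7.33, 6.26 and 7.92, all under every WT naive library. Cd244a stood at 33.3, 30.7 and 30.2, also under WT. The changes were -0.42 ± 0.09 for Cd244a (adjusted p = 0.000151), -0.46 ± 0.16 for Ly9 (-0.34, adjusted p = 0.0724, not called, when each library is divided by its mean gene), -0.58 ± 0.15 for Slamf7, -0.77 ± 0.15 for Cd48, -0.80 ± 0.15 for Slamf1, -0.71 ± 0.11 for Cd84 (adjusted p = 6.16e-07) and -0.66 ± 0.12 for Slamf6. Slamf8 was at -0.12 ± 0.20 (adjusted p = 0.623) and Slamf9 at 0.48 ± 0.24 (adjusted p = 0.0880, or 0.0362 at 0.59 with the mean gene), with libraries that overlapped WT. The 7 called lower compare with 28.3% of all genes. On the spike-in scale, where the median gene changed by 0.21 and 18% of genes were called lower, only Slamf1 was called (-0.60 ± 0.25, adjusted p = 0.0352). The other 6 genes of the block were at -0.58 ± 0.26 (Cd48, adjusted p = 0.0543) to -0.23 ± 0.23 (Cd244a) on that scale, with larger SEs than on the relative scale. Applying the spike-in factor to reads ends the call of Slamf1 (-0.17, adjusted p = 0.515), turns Cd244a (0.22), Ly9 (0.16) and Slamf7 (0.05) positive and calls Slamf9 higher (1.09, adjusted p = 0.000501).

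In naive cells, QKO had less LAP2B at most members than TKO or LBRKO. Against TKO, from which it was made, QKO was lower in 7 of 9 members on the relative scale (background 29.6%), from -0.39 ± 0.12 at Slamf6 to -0.76 ± 0.15 at Slamf1. Cd244a, whose ratio to the block is alike in these lines, changed by -0.64 ± 0.09. Ly9 (-0.21 ± 0.16, adjusted p = 0.262) and Slamf9 (-0.30 ± 0.24, adjusted p = 0.303) did not pass. Against LBRKO, QKO was lower in all 9 (background 34%), from -0.28 ± 0.12 at Slamf6 (adjusted p = 0.0454) to -1.65 ± 0.09 at Cd244a. Slamf9, which had not passed against WT or TKO, was among them at -0.82 ± 0.24 (adjusted p = 0.00354). QKO and LBRKO differ in line as well as in lamins. The mean ratio of Cd244a to the block was 3.81 in LBRKO and 2.23 in QKO naive LAP2B. The part of this ratio in the change of Cd244a was not tested. The count of 9 became 8 with a replicate block and 8 to 9 without 1 library.

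On the relative scale, the direction of change in neighbouring genes went with their place. Genes within 500 kb of the cluster numbered 124, of which 118 were tested, and they were split by place after their values were seen, so their counts are a description, to be read against 31.7% of all genes higher and 44.2% lower in QKO naive cells. Before Cd244a, 39 of 44 tested neighbours were called higher in QKO naive cells and 3 lower, with a median change of 1.22. Among them Fcer1g, the signalling chain of Fc receptors, was at 1.18 ± 0.20. Itln1, at the edge of the block, was at -2.12, like Cd244a. Inside the block, 12 of 13 other genes were called lower (median -1.11). Some of these lie within or overlap Slamf7, Cd48 or Slamf6 and share reads with them. In the gap between Slamf6 and Slamf9, 6 of 29 were higher and 6 lower (median -0.02), and between Slamf9 and Slamf8 none of 13 was higher and 5 were lower (median -0.21). Some of the latter overlap Slamf9 and share reads with it. One further gene overlaps Cd244a and was at -2.18. Beyond Slamf8 all 18 were called lower (median -1.81), with the acute-phase gene Crp lowest of all neighbours at -2.36 ± 0.12. Spike-in values did not keep the rise before Cd244a, where 5 of 44 were called higher, against 10.1% of all genes, and 5 lower (median 0.10), and in the gap none of 29 was higher and 24 were lower (median -1.05). Inside the block all 13, and beyond Slamf8 all 18, were lower on that scale (medians -1.84 and -2.40), where 65.4% of all genes were.

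LBRKO naive cells were counted in the same way, on the relative scale first, where 28.5% of all genes were higher and 28.3% lower. Before Cd244a, 32 of 44 neighbours were higher and 3 lower (median 0.84), inside the block none of 13 was higher and 8 were lower (median -0.64), in the gap 16 of 29 were higher and none lower (median 0.41), and beyond Slamf8 none of 18 was higher and 10 were lower (median -0.69). In TKO the relative medians were 0.51, -0.80, 0.10 and -0.80 in this order. Genes placed between Slamf9 and Slamf8 are left out of these counts and medians. With spike-in values the LBRKO medians were 1.04, -0.48, 0.60 and -0.55. Those of TKO were -0.05 (0 of 44 higher, 4 lower), -1.22, -0.44 and -1.31, so the TKO median before Cd244a was above 0 on the relative scale alone. Of all 70381 genes, 1676 were higher and 47.6% lower in TKO on the spike-in scale, with a median of -0.63. Within the block the smallest relative falls were those of Cd84 and Slamf6, at its right, in TKO and QKO, and those of Cd244a and Ly9, at its left, in LBRKO. These comparisons share the WT libraries, so the likeness of their profiles was not measured.

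**Figure D4:**
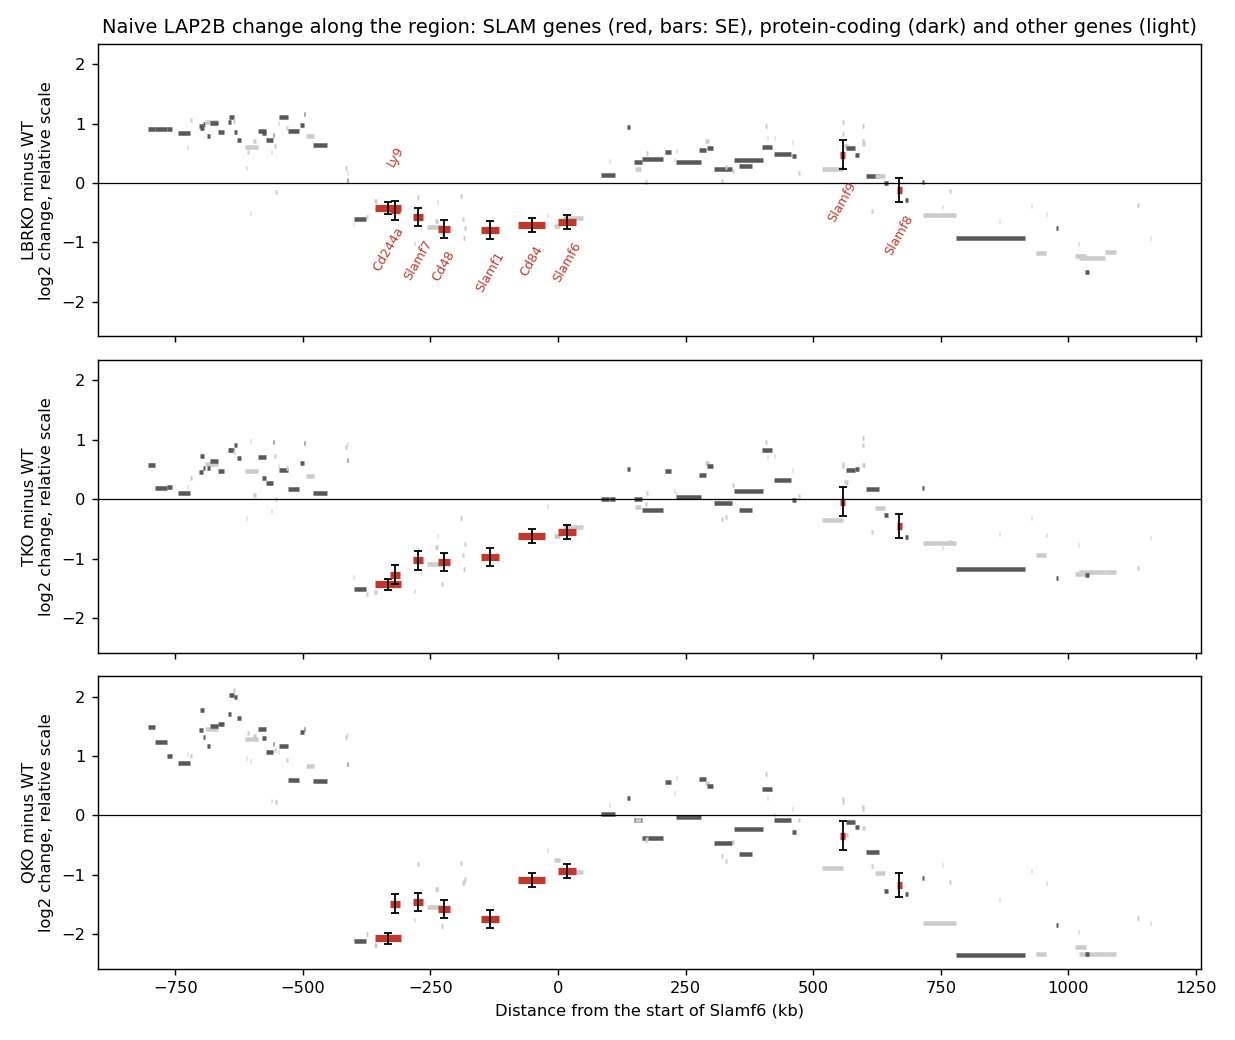
log2 change of LAP2B (relative scale) from WT in LBRKO, TKO and QKO naive cells against distance from the start of Slamf6 in kb, with SLAM genes in red (bars are SE), protein-coding genes dark and other genes light. The Cd244a to Slamf6 block lies below 0 in every panel, with neighbours mostly above 0 before Cd244a, around or above 0 in the gap to Slamf9, and mostly below 0 beyond Slamf8.

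Base composition, which the choice of genes did not use, differed along the same region. The span of Cd84 was 40.6% GC and that of Cd48 41.3%, and the other block members lay at 42.9 to 44.9%, against 45.4% for the median of 20852 protein-coding genes tested. Slamf8 was at 49.3% and Slamf9 at 45.1%. The 26 protein-coding neighbours before Cd244a had a median of 49.1%, the 14 in the gap 49.3% and the 5 beyond Slamf8 42.7%. CG dinucleotides per kb numbered 5.76 (Cd48) to 9.79 (Slamf7) in the block, 8.6 at Slamf9 and 15.6 at Slamf8, against a median of 12.0. The part of base composition in the signal was not tested.

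Between the stages of WT cells, LAP2B was lower in EpiLCs at 4 members relative to other genes. Cd48 went from 5.69, 7.23 and 5.94 in naive cells to 4.13, 3.49 and 4.10 in EpiLCs, and Slamf6 from 10.3, 12.9 and 10.9 to 7.52, 7.73 and 6.70, without overlap. The changes were -0.67 ± 0.15 for Cd48 (adjusted p = 0.000469), -0.62 ± 0.12 for Slamf6, -0.64 ± 0.20 for Slamf8 (adjusted p = 0.00974) and -0.36 ± 0.09 for Cd244a. Dividing by the mean gene ended the calls of Slamf8 (-0.43, adjusted p = 0.0999) and Cd244a (-0.14, adjusted p = 0.223). Cd84 held 10.6, 9.96 and 11.0 in EpiLCs, a change of 0.02 ± 0.11 (adjusted p = 0.913). The 4 calls, all lower, compare with 17.2% of genes lower. No member was called by LAP2B on the spike-in scale, where Cd48 was at -0.50 ± 0.26, Slamf6 at -0.46 ± 0.24, Slamf8 at -0.48 ± 0.28 and Cd244a at -0.19 ± 0.23, or by LMNB1 or IGG on either scale, where the shares of genes called lower were 1.85% (LAP2B, spike-in), 7.46% and 0.246% (LMNB1, relative and spike-in) and 0.426% and 0% (IGG, relative and spike-in). Of the relative-scale values, 2 members (LMNB1) and 4 (IGG) had an unadjusted p under 0.05 by limma. By edgeR 2 (LMNB1) and 3 (IGG) did, and none of them passed adjustment. On the relative scale LMNB1 gave 1 member lower without WT naive replicate 2, and 1 of the 8 of at least 10 kb when only such genes were tested. LMNB1 libraries lay lower in EpiLCs without overlap in 3 members (Cd244a, Cd48 and Slamf6) and higher in none. The share of all genes for this LMNB1 count is not given here. IGG itself lay lower without overlap in 6 of 9 members (background 10.5%), with -0.52 ± 0.15 at Cd48 (adjusted p = 0.106) and -0.34 ± 0.13 at Slamf6, and the part of background in the LAP2B change was not tested. The study did not use LAP2B as a stand-in for LADs in EpiLCs, because in WT EpiLCs its signal lay both in LADs and outside them.

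In EpiLCs, part of the block was again lower than in WT in each mutant. QKO EpiLC libraries stood at 4.83, 4.85 and 3.53 for Slamf1, where WT EpiLC libraries stood at 8.68, 7.09 and 7.07, and at 4.31, 4.45 and 5.09 for Slamf6. The changes were -0.79 ± 0.15 (adjusted p = 4.38e-05) and -0.65 ± 0.12 (adjusted p = 1.97e-05). Of the members 7 were called lower (background 19.1%), and not Cd48 (-0.32 ± 0.15, adjusted p = 0.0904) or Slamf9 (0.31 ± 0.24). The calls of Ly9 and Slamf8 were lost when libraries were divided by the mean gene (-0.26, adjusted p = 0.198, and -0.39, adjusted p = 0.122). Spike-in values gave 8 of 9 lower (background 55.7%, median gene -0.73). In TKO EpiLCs 5 were called lower (Cd244a, Slamf7, Slamf1, Cd84 and Slamf6, background 10.8%), with Cd84 at 5.85, 7.28 and 7.30 against 10.6, 9.96 and 11.0 in WT (-0.63 ± 0.11, adjusted p = 8.82e-05). The call of Slamf7 was lost with the mean gene (-0.34, adjusted p = 0.102). Spike-in values gave 4 (background 9.6%), and 1 without TKO EpiLC replicate 2 or 3 or WT EpiLC replicate 1 or 3, with only the groups compared, or with the factor applied to reads.

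LBRKO EpiLCs had 5 members called lower (Cd244a, Ly9, Slamf7, Cd84 and Slamf6, background 10.3%) on the relative scale. None was called on the spike-in scale by limma or edgeR (background 3.58%), where 2 had an unadjusted p under 0.05 by each tool. Multiplying recovered reads by the factor instead called 2 members, both higher. The share of all genes called under that setting is not given here. The deposited spike-in changes of these 5 were nearly as large but with larger SEs, from -0.52 ± 0.24 at Cd84 (adjusted p = 0.173) to -0.27 ± 0.23 at Cd244a. On the relative scale Cd84 had the largest of these changes (-0.55 ± 0.11, adjusted p = 0.000176), with LBRKO libraries at 6.98, 7.43 and 7.0. The number called fell to 1 without LBRKO EpiLC replicate 3 or without WT EpiLC replicate 1, and to 3 without any one other library of these groups, 1 of them Slamf9 called higher without WT EpiLC replicate 2. In EpiLCs no member passed between QKO and TKO by limma with all groups in the fit or by edgeR (adjusted p of 0.119 or more by limma, background 0.311% lower), and 1 had an unadjusted p under 0.05 by each tool. With only the groups compared, limma called 1 member lower. All 9 estimates were negative. Slamf8 was at -0.60 (adjusted p = 0.119), with an interval of 2 SE from -0.99 to -0.20, and its QKO libraries lay below those of TKO, as did those of Slamf6. The intervals were -0.28 to 0.10 for Cd244a and -0.54 to 0.06 for Slamf1. Against LBRKO, QKO EpiLCs were lower at Cd244a, Slamf1 and Slamf8 (background 17.7%), a count of 3 that became 1 without LBRKO EpiLC replicate 1 or with the mean gene and 5 with only the groups compared. The lines differ here too, and the mean ratio of Cd244a to the block was 3.3 in LBRKO and 2.1 in QKO EpiLCs.

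Whether the effect of a genotype differed between the stages was tested directly, as EpiLC effect minus naive effect on the relative scale. For QKO the difference was positive, a smaller fall in EpiLCs, and called at 7 of 9 members (background 26.2% higher). It was 1.26 ± 0.21 at Cd48 (adjusted p = 2.27e-06), 1.08 ± 0.23 at Ly9, 0.95 ± 0.21 at Slamf1, 0.89 ± 0.13 at Cd244a, 0.76 ± 0.22 at Slamf7, 0.65 ± 0.28 at Slamf8 (adjusted p = 0.0499) and 0.39 ± 0.16 at Cd84 (adjusted p = 0.0445). Slamf6 (0.28 ± 0.17, adjusted p = 0.171) and Slamf9 (0.66 ± 0.34, adjusted p = 0.112) did not pass. The count of 7 became 6 with a replicate block and 5 to 7 without 1 library. For TKO the difference was called at Ly9 (1.02 ± 0.23) and Cd48 (0.95 ± 0.21), with a background of 5.3% higher, and for LBRKO at Cd48 alone among members (0.66 ± 0.21, adjusted p = 0.0208, background 10.7%). The LBRKO call was lost with the mean gene and without any one of LBRKO EpiLC replicate 2, LBRKO naive replicate 3, WT EpiLC replicate 2 and WT naive replicate 2. These differences use the WT stages too, and Cd48 was already lower in WT EpiLCs. Over all genes the median difference for QKO was 0.23. The study's limit on LAP2B in EpiLCs holds here as well, so the differences describe LAP2B signal and not contact with LADs.

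**Figure D5:**
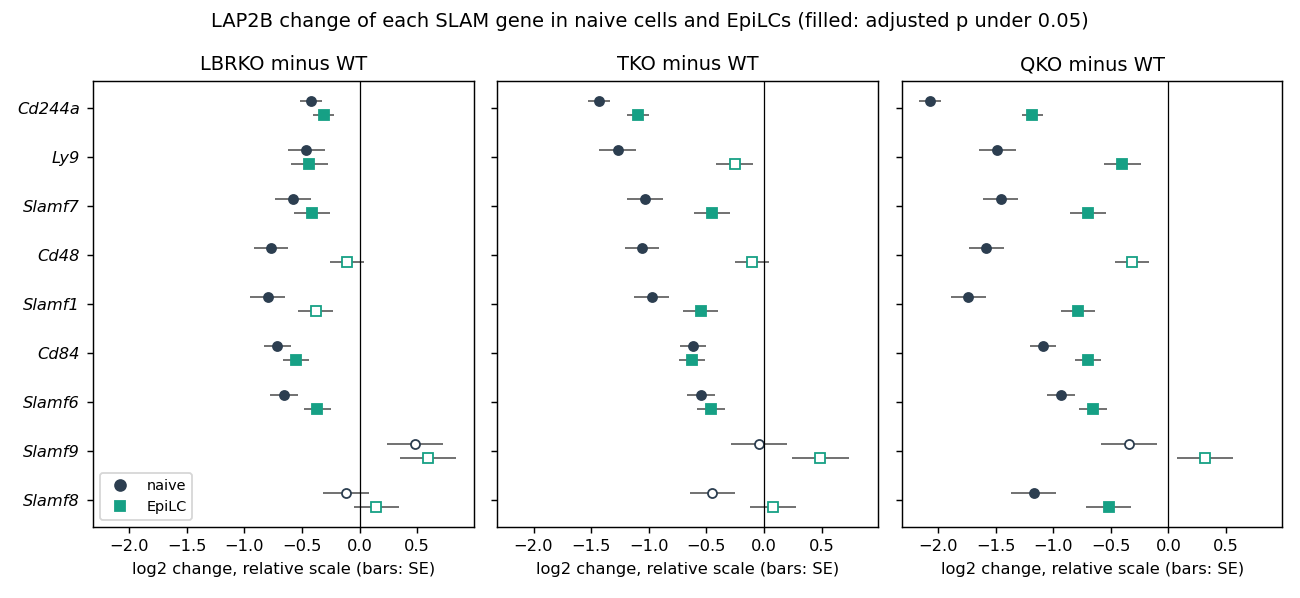
log2 change of LAP2B from WT (relative scale, bars are SE) for each SLAM gene in LBRKO, TKO and QKO, with naive cells as circles, EpiLCs as squares and filled symbols called at adjusted p under 0.05. In QKO the naive points of the block lie from -2.07 to -0.93 and the EpiLC points from -1.18 to -0.32.

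Other immune genes of chromosome 1 and partners of the SLAM receptors were followed as lists, first on the relative scale, where 31.7% of all genes were higher and 44.2% lower in QKO naive cells. The PYHIN genes, sensors of DNA that are induced by interferon, lie further along chromosome 1. All 13 tested were called lower in QKO naive cells (median -2.28), with Ifi202b at -2.96 ± 0.14, Ifi203 at -2.70 ± 0.14 and Ifi207 at -2.64 ± 0.16, and so were 13 in TKO (median -0.97, background 28.1%) and 12 in LBRKO (median -1.01, background 28.3%). Fc receptor genes of the chromosome were mixed, with 2 higher and 2 lower of 7 tested in QKO (the list holds 8, of which 1 is listed at 0), among them the IgE receptor chain Fcer1a at -2.46 ± 0.23 and Fcrl6, next to Slamf8, at -1.32 ± 0.23. The adaptors, kinases and phosphatases listed as SLAM partners had 6 higher and 8 lower of 14 (median -0.41). With spike-in values in QKO, all 13 PYHIN genes were lower (median -3.37), the Fc receptor genes had none higher and 5 lower (median -1.30), and the partners had 1 higher and 9 lower (median -1.58), where 65.4% of all genes were lower. On the relative scale the kinase gene Lck was at 2.36 ± 0.15, the phosphatase gene Ptpn6 at 1.63 ± 0.14 and the kinase gene Prkcq at -1.57 ± 0.10. Fcer1g and Fcrl6 are also neighbours of the cluster.

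Genes with the most similar profile over the 8 LAP2B group means were sought among 20777 protein-coding genes more than 1 Mb away. The highest Pearson correlations with the mean of the members were those of Arpp21 (r = 0.996), Dlgap1 (0.994), A2m (0.993), Prp2 (0.992) and Prdx6b (0.989), on chromosomes 9, 17, 6, 6 and 2. The 8 points share libraries and scaling, and the correlations are a description. Among the members, the correlation with the mean of the other 8 was highest for Slamf1 (0.957), Slamf7 (0.955) and Cd48 (0.951), lower for Slamf6 (0.656) and lowest for Slamf9 (0.233).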

How the data were processed

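CUT&RUN values were deposited for LAP2B, LMNB1 and IGG in 36 libraries (12 groups of 3). The authors aligned reads to mm39 and the yeast spike-in to sacCer3 and made RPKM coverage in 1 kb bins scaled by spike-in. The submitters' processing notes name Bowtie2 2.3.5.1, SAMtools 1.10 and deepTools. The deposited signal values per gene equal sums over the bins that a gene touches, worked out here from the values, since that step is not given in the sources used here. Whole reads were recovered for 100% of values within 0.05 of a step. Gene coordinates came from GENCODE (GRCm39), the release of the reference used here being later than that of the authors, and matched 78131 of 78202 genes. A further 2 H3K9me3 samples were not analysed here.

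The lowest 10% of genes by mean were left out, and log2(value + 0.1 of the table's median) was tested by limma 3.58.1 (R 4.3.3) with a mean-variance trend, all groups of an antibody in 1 fit, Benjamini-Hochberg adjustment over 70381 genes and a threshold of 0.05. Fold changes of low genes are understated on this scale. Alternatives were edgeR 4.0.16 on recovered reads, a pseudocount of 0.5 of the median, no filter, genes of at least 10 kb, other scalings, only the groups compared, a replicate block and leaving out each library. On simulated data for QKO against WT naive cells (70381 genes), limma found 72% of 100 genes changed by 1 on the log2 scale and 18% of 100 changed by 0.5. Only these genes were changed in the simulation. Far more were called in the data, where the same adjustment is less strict, so recovery there was not measured. Replicates of a group differed by more than sampling noise (chi-square per degree of freedom of 3.41 to 12.9).

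The members and lists were chosen with earlier results of these data known. All members are named. From every other list at most 3 genes are given with values, those with the largest change past the threshold in QKO against WT naive cells, together with the 5 genes most like the members. Itln1 is given outside this rule, chosen after its values were seen. Sequences are from RefSeq (GRCm38.p6).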

Additional observations from a re-analysis of the deposited data

Results flagged for a closer look

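The effect of a genotype on LAP2B differed between EpiLCs and naive cells by a test of the difference itself in 10 cases. Each value is the log2 change from WT in EpiLCs minus that in naive cells on the relative scale, with 3 libraries in each of the 4 groups and adjusted p by limma. For QKO it was 0.89 at Cd244a (2.3e-07), 1.08 at Ly9 (9.74e-05), 0.76 at Slamf7 (0.00357), 1.26 at Cd48 (2.27e-06), 0.95 at Slamf1 (0.000241), 0.39 at Cd84 (0.0445) and 0.65 at Slamf8 (0.0499). For TKO it was 1.02 at Ly9 (0.00262) and 0.95 at Cd48 (0.00233), and for LBRKO 0.66 at Cd48 (0.0208), a call lost with the mean gene and without any one of LBRKO EpiLC replicate 2, LBRKO naive replicate 3, WT EpiLC replicate 2 and WT naive replicate 2. Over all genes the median difference was 0.23 for QKO, 0.09 for TKO and 0.05 for LBRKO. The shares of all genes called higher were 26.2%, 5.3% and 10.7% in this order.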

How the results depend on the processing

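The count of members called lower in QKO naive cells was 8 (relative) and 9 (spike-in) without any one library. Dividing by the mean gene also gave 8, with 35.8% of all genes lower and 38.2% higher. Leaving out 1 library gave ranges of 6 to 8 for LBRKO and 7 to 8 for TKO naive cells, 1 to 3 for LBRKO EpiLCs (5 with all libraries), 3 to 5 for TKO EpiLCs (3 without WT EpiLC replicate 1), 5 to 6 for QKO EpiLCs, 3 to 5 for the WT stages and 1 to 3 for QKO against LBRKO EpiLCs (1 without LBRKO EpiLC replicate 1). For the LBRKO difference between stages the range was 0 to 1 (0 without LBRKO EpiLC replicate 2, LBRKO naive replicate 3, or replicate 2 of WT EpiLC or WT naive). On the spike-in scale it was 0 to 2 for LBRKO naive cells (0 without LBRKO naive replicate 1, 2 without LBRKO naive replicate 3 or WT naive replicate 1) and 1 to 5 for TKO EpiLCs (1 without TKO EpiLC replicate 2 or 3, or WT EpiLC replicate 1 or 3), and for LMNB1 0 to 1 (1 without WT naive replicate 2). Dividing by the mean gene gave 2 calls for the WT stages, 1 for QKO against LBRKO EpiLCs and 0 for the LBRKO difference between stages. Fitting only the groups compared gave 1 for QKO against TKO EpiLCs, 5 for QKO against LBRKO EpiLCs and 1 for TKO EpiLCs on the spike-in scale. LBRKO naive cells on that scale gave 3 calls (2 lower, 1 higher) with the larger pseudocount and with genes of at least 10 kb, and 2 by edgeR. The spike-in factor applied to reads gave 2 for LBRKO EpiLCs, both higher, and 1 for TKO EpiLCs. LMNB1 gave 1 with genes of at least 10 kb. Apart from QKO naive cells with the mean gene, counts under alternatives are given without the share of all genes called. Dividing by gene length in place of bins put the median member's percentile at 60.6 for LAP2B, 62.4 for LMNB1 and 28.5 for IGG in naive cells, and at 50.03, 58.0 and 26.5 in EpiLCs. The cause was not tested.

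Of 1223 single-gene values under alternatives, 1132 kept direction and side of the threshold, 47 lost a call, 28 gained one and 16 changed sign, all of the last with adjusted p of 0.349 or more. With the mean gene, calls were lost at Ly9 (LBRKO naive cells), Slamf6 (TKO naive cells), Slamf7 (TKO EpiLCs), Ly9 and Slamf8 (QKO EpiLCs), and Cd244a and Slamf8 (WT stages), the values standing beside those results. With the chromosome 1 median they were lost at Slamf7 in TKO EpiLCs (-0.36) and at Ly9 (-0.30) and Slamf8 (-0.42) in QKO EpiLCs. Calls were gained at Slamf1 in LBRKO EpiLCs under 6 alternatives, at Slamf9 (higher) in LBRKO and at Slamf8 and Slamf9 (lower) in TKO naive cells as given beside those results, at Slamf9 (higher) in LBRKO EpiLCs with genes of at least 10 kb, and on the spike-in scale of LBRKO naive cells at Cd48 (lower) and Slamf9 (higher) under 3 alternatives each. The other gains came from leaving out 1 library. The sign changes with the mean gene were Slamf8 in LBRKO naive cells (0.0049), Slamf9 in TKO naive cells (0.26), Cd48 in TKO EpiLCs (0.0021) and Slamf7 between WT stages (0.0089). With the chromosome 1 median it was Slamf9 in TKO naive cells (0.0746). With the factor applied to reads, LBRKO naive cells gave 0.22 at Cd244a, 0.16 at Ly9 and 0.0501 at Slamf7. Without 1 library the ranges were -0.14 to 0.10 for Slamf9 in TKO naive cells, -0.0626 to 0.40 for Slamf8 in LBRKO EpiLCs, -0.19 to 0.0061 for Cd48 and -0.0366 to 0.21 for Slamf8 in TKO EpiLCs, and -0.0125 to 0.0583 for Cd84 between WT stages. On the spike-in scale of LBRKO naive cells they were -0.42 to 0.0169 for Ly9 and -0.0219 to 0.14 for Slamf8.

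Replicate numbers are shared between groups, but same-numbered libraries did not deviate together (correlations of -0.259 to 0.181, and 0 of 30 group pairs with every value over 0.1). This gave no ground to pair them, but it cannot show that they were prepared apart. With a replicate block the calls were 7, 7 and 8 in LBRKO, TKO and QKO naive cells, 6, 5 and 7 in EpiLCs, 4 between WT stages, 7 and 8 for QKO against TKO and LBRKO naive cells and 6 for the QKO difference between stages, and no count of calls moved by over 1.5 times. Depth limits Slamf9 most, with as few as 36 LAP2B reads in a library.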
